A study of Mus musculus with 6 samples.

Results

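The genes described are 10 transcription regulators of fat cells and lipid sensing. They are the 3 peroxisome proliferator-activated receptors (Pparg, Ppara and Ppard), 3 CCAAT/enhancer-binding proteins (Cebpa, Cebpb and Cebpd), the retinoid X receptor gene Rxra, both liver X receptors (Nr1h2 and Nr1h3) and the coactivator gene Ppargc1b. They were found by gene symbol among 55039 genes of the count and FPKM tables, and all 10 were present in both. The tissue was the white fat around the epididymis (eWAT) of male C57BL/6 mice that were 6 to 7 weeks old when the experiment began. The 3 mice of the CAC group (cancer-associated cachexia) had received Lewis lung carcinoma (LLC) cells, a mouse lung tumor line, under the skin of the lower back. The 3 mice of the CONT group had received phosphate-buffered saline only. The fat was taken 28 days after injection, with 1 mRNA library per mouse, and each library is of whole tissue with all its cell types. The comparison asked how the transcripts of these regulators differed between the fat of tumor-bearing and healthy mice.

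PPARγ, encoded by Pparg, and C/EBPα are the factors that turn a precursor into a fat cell and keep it one, and C/EBPβ and C/EBPδ are known to act before them early in differentiation and also in inflammation and stress. The PPARs and liver X receptors are nuclear receptors that bind lipids, fatty acids in the case of the PPARs and oxidized cholesterol in the case of the liver X receptors, and both kinds bind DNA as dimers with a retinoid X receptor. PPARα and PPARδ are known for turning on fatty acid oxidation, the liver X receptors for cholesterol export and lipid synthesis, and PGC-1β, the product of Ppargc1b, for raising mitochondrial and oxidative genes through these and other receptors.

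The sequence upstream of the start sites is shown for 1 or more genes of the PPAR, C/EBP and retinoid X receptor families, since the C/EBPs, CREB and the nuclear receptors are known to act on each other's promoters. A RefSeq table (GRCm38.p6) held 8 of the 10 genes with 12 start sites, and 250 bases upstream of each were searched on both strands. The C/EBP motif TTNNGCAA occurred in 9.56% of 32851 such windows over all genes, the nuclear receptor core motif AGGTCA in 14.02%, the cAMP response core motif TGACG in 17.8%, the CCAAT box CCAAT in 33.9% and TATAAA in 12.4%. In the sequences below, which run 5′ to 3′ and end at the base before the start site, capitals mark matches to these motifs on either strand. The Pparg window (chr6:115421816-115422065, plus strand) lies before the downstream start, from which the fat-cell form of PPARγ is made. The Cebpa window is chr7:35119043-35119292 (plus strand), the Cebpb window chr2:167688665-167688914 (plus strand) and the Rxra window chr2:27709042-27709291 (plus strand), the downstream of 2 Rxra starts.
Pparg upstream: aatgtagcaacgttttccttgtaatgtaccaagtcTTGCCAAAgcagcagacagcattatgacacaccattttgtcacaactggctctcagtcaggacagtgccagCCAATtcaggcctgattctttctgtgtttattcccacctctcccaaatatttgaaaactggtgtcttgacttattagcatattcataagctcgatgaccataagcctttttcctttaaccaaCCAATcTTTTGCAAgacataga
Cebpa upstream: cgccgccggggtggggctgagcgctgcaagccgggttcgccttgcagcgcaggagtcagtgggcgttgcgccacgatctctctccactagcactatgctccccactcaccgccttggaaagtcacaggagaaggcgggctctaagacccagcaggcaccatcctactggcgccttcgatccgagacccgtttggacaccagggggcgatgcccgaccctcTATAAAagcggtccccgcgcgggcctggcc
Cebpb upstream: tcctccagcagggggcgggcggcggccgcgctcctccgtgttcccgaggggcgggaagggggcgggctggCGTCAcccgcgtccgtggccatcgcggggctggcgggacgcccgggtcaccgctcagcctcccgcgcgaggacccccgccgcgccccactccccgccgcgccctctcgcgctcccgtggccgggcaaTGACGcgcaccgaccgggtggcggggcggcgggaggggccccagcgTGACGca
Rxra upstream: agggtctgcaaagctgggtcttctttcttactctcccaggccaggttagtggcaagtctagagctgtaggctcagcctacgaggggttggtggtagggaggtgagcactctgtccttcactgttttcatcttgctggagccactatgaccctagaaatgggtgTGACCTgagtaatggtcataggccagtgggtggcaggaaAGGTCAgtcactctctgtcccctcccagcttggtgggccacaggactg
The Pparg window held 2 matches to the C/EBP motif, at -215 to -208 and at -16 to -9 from the start site, and was the only window among the 12 with any. A CCAAT box lay at -22 to -18, next to the nearer of them. The Cebpa window held TATAAA at -30 to -25, and the Cebpb window held TGACG 3 times, the nearest at -7 to -3. The Rxra window held AGGTCA at -48 to -43 and, on the other strand, at -87 to -82. Windows not shown held such matches too. AGGTCA lay at -28 to -23 and at -9 to -4 in upstream Pparg windows, where TATAAA also lay at -29 to -24 on the other strand. TGACG lay at -222 to -218 in the Ppara window. The upstream Rxra window and the Nr1h2 window held no match to the motifs named. The search covered 11 motifs, not all of them named here. These matches are of letters alone, and the counts, which are per gene, do not separate the transcripts of different start sites.

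Before the comparison, 1 library in each group stood apart from the others of its group. CONT replicate 1 held 15713794 counts, against 19819755 to 25926425 in the other 5 libraries, and genes of the mitochondrial genome took 30.2% of its counts against 3.89% to 5.04%. Relative to CONT replicates 2 and 3, its median gene was 0.43 higher on the log2 CPM scale among the third of genes with the shortest deposited length and 0.39 lower among the longest. Among the 10 regulators, Cebpb was 1.52 higher there on the log2 CPM scale, Nr1h3 0.93, Cebpd 0.85 and Rxra 0.52 higher, and Ppara differed by -2.64, so the fold change of each regulator is given with and without this library. CAC replicate 1 differed from the other CAC libraries in some genes of the fat cell, named here after their values were seen. The leptin gene Lep stood at 512 CPM in CAC replicate 1, 3.996 and 0.415 CPM in CAC replicates 2 and 3 and 409 to 697 CPM in CONT. In the same order, the β3-adrenergic receptor gene Adrb3 stood at 602, 142 and 45.1 CPM against 564 to 692 CPM in CONT, Nnat at 1327, 3.23 and 1.74 CPM against 639.9 to 1426 CPM, and the desaturase gene Scd1 at 14818, 874 and 3019 CPM against 12652 to 23588 CPM. In these genes CAC replicate 1 was within the CONT range and the other CAC libraries below it. Not all adipocyte markers shared this pattern. In CAC replicates 1 to 3, Cfd stood at 14516, 20467 and 22183 CPM and Pnpla2 at 4177, 3787 and 4725 CPM. Among 13 adipocyte markers, 6 had a fitted fold change above 0 and 7 below. The 2 most abundant by FPKM were high in all 6 libraries. Cfd (adipsin) ran from 6453 to 17818 CPM in CONT and 14516 to 22183 CPM in CAC, and Car3 (carbonic anhydrase 3) from 10918 to 17756 CPM in CONT and 9650.1 to 21355 CPM in CAC. Summed over 13 adipocyte markers, the level ran from 34192 to 73232 CPM in CONT and from 47621 to 69327 CPM in CAC, and those of 15 macrophage markers from 915 to 2437 CPM in CONT and from 1166 to 2029 CPM in CAC. The 11 neutrophil markers ran from 17.7 to 113 CPM in CONT and from 209.6 to 1384 CPM in CAC without overlap. Epididymis markers summed to 13006 CPM in CONT replicate 3 and to 0.452 to 449.6 CPM in the others. In whole tissue, fewer cells of a type and less RNA per cell cannot be told apart.

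None of the 10 regulators passed the test. Levels are in CPM, counts scaled by TMM-adjusted library sizes so that 1 CPM stood for 11.2 to 26.5 reads, given as mean ± SD (n = 3 mice per group), and fold changes are log2 values of CAC over CONT with their standard error (SE), from edgeR's quasi-likelihood test. All 10 passed the filter on low counts, and 0 of 10 had a Benjamini-Hochberg adjusted p under 0.05, as was true of 0 of all 17296 genes tested (0%). At an unadjusted p under 0.05, 1 of 10 was called (Cebpd), against 13.3% of all genes. Of the 10, 9 had a fitted fold change above 0, against 45.9% of all genes, and their median log2 fold change was 0.43, against -0.055 over all genes. In 2 of 10, Cebpd and Nr1h2, the CAC libraries all lay above the 3 CONT libraries, against 11.8% of all genes. Without CONT replicate 1, 4 of 10 had an unadjusted p under 0.05 (15.6% of all genes, 7.30% with a higher level in CAC), 5 of 10 had all CAC libraries above the remaining CONT libraries (18.1%) and 0 had them below (19.6%), and the median log2 fold change was 0.79. Without CAC replicate 1, 4 of 10 also had an unadjusted p under 0.05, against 11.7% of all genes. By DESeq2, the study's tool, 1 of 10 had an adjusted p under 0.05 and was higher in CAC, against 5.55% of all genes (3.18% higher, 2.37% lower), and by DESeq2 without CONT replicate 1 it was 3 of 10, Cebpd, Rxra and Nr1h3, all higher, against 6.01% higher. The fitted log2 fold changes without CAC replicate 1 were 0.18 for Pparg, 0.62 for Ppard, -0.32 for Cebpa, 0.52 for Cebpb, 1.70 for Cebpd, 0.76 for Rxra, 0.26 for Nr1h2 and 0.42 for Nr1h3, with those of Ppara and Ppargc1b given below (edgeR). An exact permutation test of 3 against 3 mice cannot give a p under 0.1.

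**Figure D1:**
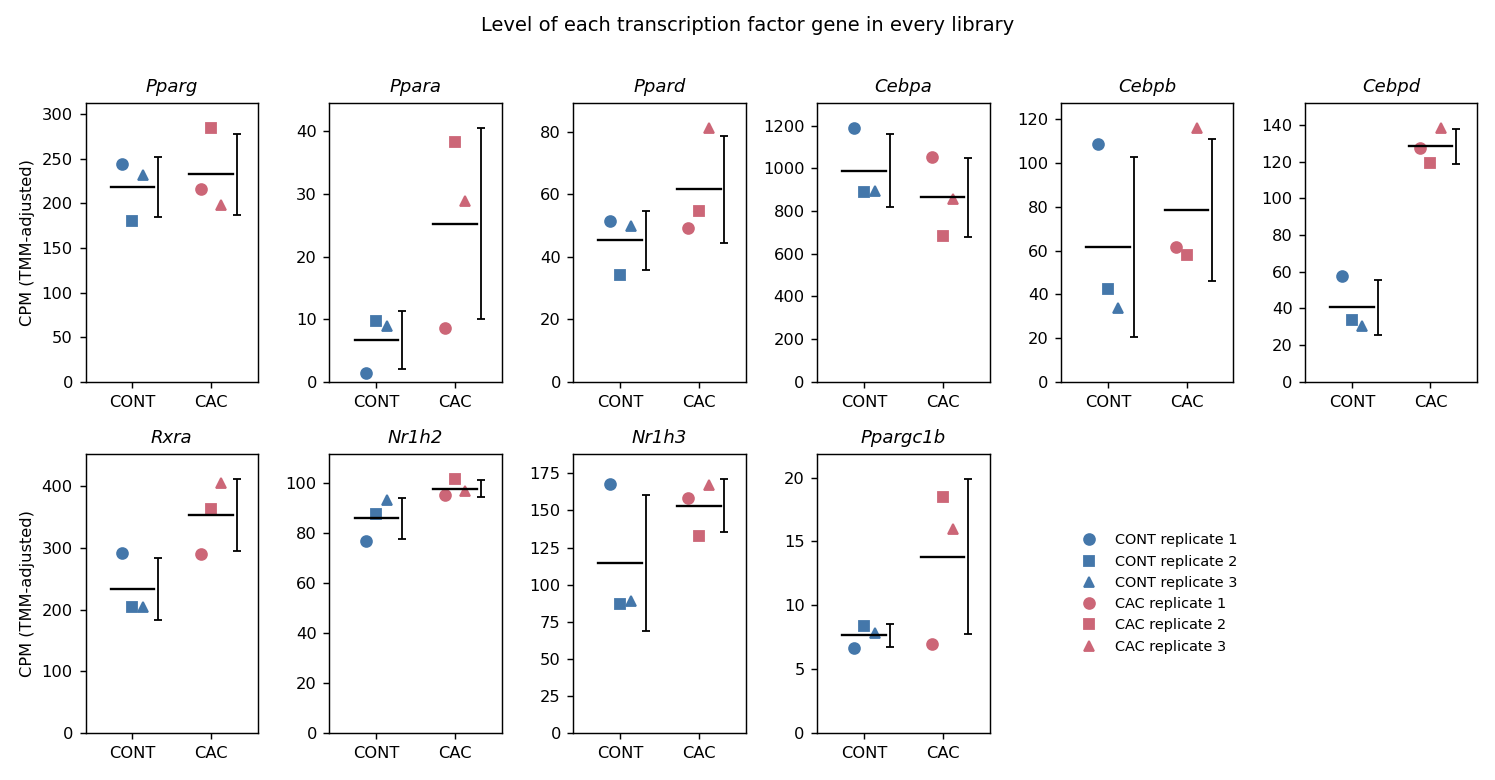
Level of each gene in every library, in CPM on TMM-adjusted library sizes (linear axis from 0, scaled per gene). Points are libraries, horizontal lines the mean of 3 and vertical bars 1 SD on either side; Cebpd is the gene with the widest gap between groups (30.3 to 57.7 CPM in CONT, 119 to 138 CPM in CAC), and CONT replicate 1 (blue circle) lies within or above the CAC points for Cebpb, Nr1h3 and Rxra.

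Among the PPARs, Ppara differed most and Pparg least. Pparg (ENSMUSG00000000440, chr6:115360951-115490399, plus strand), the receptor of adipogenesis and the target of the thiazolidinedione drugs, stood at 244, 181 and 232 CPM in CONT replicates 1 to 3 and 216, 284 and 199 CPM in CAC replicates 1 to 3. The groups overlapped throughout, with the highest and the lowest level of the 6 in CAC replicate 2 and CONT replicate 2. The means were 219 ± 33.7 CPM in CONT and 233 ± 45.2 CPM in CAC, a log2 fold change of 0.089 (SE 0.24, edgeR adjusted p = 0.902), and the sign turned to -0.068 without CAC replicate 2. It was 0.18 (SE 0.24, edgeR adjusted p = 0.798) without CONT replicate 1.

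Ppara (ENSMUSG00000022383, chr15:85734983-85802819, plus strand), which drives fatty acid oxidation in liver and brown fat, was rare in this tissue. It had 16, 223 and 198 reads in CONT replicates 1 to 3 and 210, 951 and 763 in CAC replicates 1 to 3. This is 1.43, 9.77 and 8.95 CPM in CONT replicates 1 to 3 and 8.62, 38.4 and 28.8 CPM in CAC replicates 1 to 3. CAC replicates 2 and 3 were above all CONT libraries, while CAC replicate 1 lay between CONT replicates 1 and 3. The means were 6.71 ± 4.60 CPM in CONT and 25.3 ± 15.2 CPM in CAC, and the log2 fold change was 1.90 (SE 0.81, edgeR adjusted p = 0.379). Without CONT replicate 1 it was 1.45 (SE 0.67, edgeR adjusted p = 0.381), and without CAC replicate 1 it was 2.39 (edgeR adjusted p = 0.352). By DESeq2 without CAC replicate 1 it was 2.37 (DESeq2 adjusted p = 0.0462), in a fit that called 1505 genes and 3 of the 10 regulators, Ppara, Cebpd and Ppargc1b. Fewer than 20 reads in CONT replicate 1 make that library's value the least precise of all.

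Ppard (ENSMUSG00000002250, chr17:28232700-28301474, plus strand), the widely expressed PPAR that also serves fatty acid oxidation, stood at 51.6, 34.3 and 49.8 CPM in CONT replicates 1 to 3 and 49.2, 54.6 and 81.1 CPM in CAC replicates 1 to 3. CAC replicate 3 was the highest and CONT replicate 2 the lowest, and the other 4 lay within 49.2 to 54.6 CPM. The log2 fold change was 0.45 (SE 0.27, edgeR adjusted p = 0.496), and 0.21 without CAC replicate 3. Leaving out CONT replicate 1 gave 0.56 (SE 0.30, edgeR adjusted p = 0.448).

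Among the C/EBPs, Cebpd was higher in every CAC library, while Cebpa, the most abundant regulator, and Cebpb overlapped between groups. Cebpa (ENSMUSG00000034957, chr7:35119293-35121928, plus strand), which maintains the mature fat cell and its insulin sensitivity, stood at 1187, 889.5 and 892 CPM in CONT replicates 1 to 3 and 1054, 682 and 856 CPM in CAC replicates 1 to 3. It was the only gene of the 10 with a fitted fold change below 0, -0.20 (SE 0.29, edgeR adjusted p = 0.802), with means of 989 ± 171 CPM in CONT and 864 ± 186 CPM in CAC. CAC replicate 2 was the lowest library and CONT replicate 1 the highest. Without CONT replicate 1 the log2 fold change was -0.030 (SE 0.25, edgeR adjusted p = 0.990), and with offsets for gene length and GC content, added after the data had been seen, it was 0.11.

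Cebpb (ENSMUSG00000056501, chr2:167688915-167690418, plus strand, a single exon), an early factor of adipogenesis that also answers to interleukin-6 and cAMP, stood at 109, 42.2 and 33.6 CPM in CONT replicates 1 to 3 and 61.8, 57.8 and 116 CPM in CAC replicates 1 to 3. CONT replicate 1 and CAC replicate 3 had levels above 100 CPM and the other 4 libraries lay within 33.6 to 61.8 CPM. The log2 fold change was 0.35 (SE 0.51, edgeR adjusted p = 0.796). It was 1.06 (SE 0.37, edgeR adjusted p = 0.292) without CONT replicate 1, where all 3 CAC libraries were above both remaining CONT libraries, and -0.027 without CAC replicate 3. Of the 1504 exon bases of Cebpb, 20.7% are shared with Tmem189 on the opposite strand, which had 6440 reads over the 6 libraries against 8929 for Cebpb, and the library kit does not mark strand.

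Cebpd (ENSMUSG00000071637, chr16:15887286-15891031, plus strand), the partner of Cebpb in the first hours of differentiation and an acute-phase factor, stood at 57.7, 33.9 and 30.3 CPM in CONT replicates 1 to 3 and 127, 119 and 138 CPM in CAC replicates 1 to 3. The groups did not overlap, and the lowest CAC library was 2.07 times the highest CONT library. The means were 40.6 ± 14.9 CPM in CONT and 128 ± 9.36 CPM in CAC, a ratio of 3.16, and the log2 fold change was 1.66 (SE 0.28, edgeR adjusted p = 0.215). Its unadjusted p of 7.61e-04 ranked 60 among the 17296 genes. Without CONT replicate 1 the log2 fold change was 2.01 (SE 0.14, edgeR adjusted p = 0.197). By DESeq2 it was 1.68 (SE 0.34, DESeq2 adjusted p = 8.92e-05), and over 26 alternatives it ran from 1.499 to 2.06 with an adjusted p under 0.05 in 9, all by DESeq2 or voom. Neutrophil markers were higher in the same 3 libraries, at 209.6, 313 and 1384 summed CPM in CAC replicates 1 to 3, while Cebpd varied between 119 and 138 CPM over these 3, and the part of these cells in the result was not tested. Cebpd shares 15.0% of its exon bases with Spidr on the opposite strand, which had 1401 reads against 11805.

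**Figure D2:**
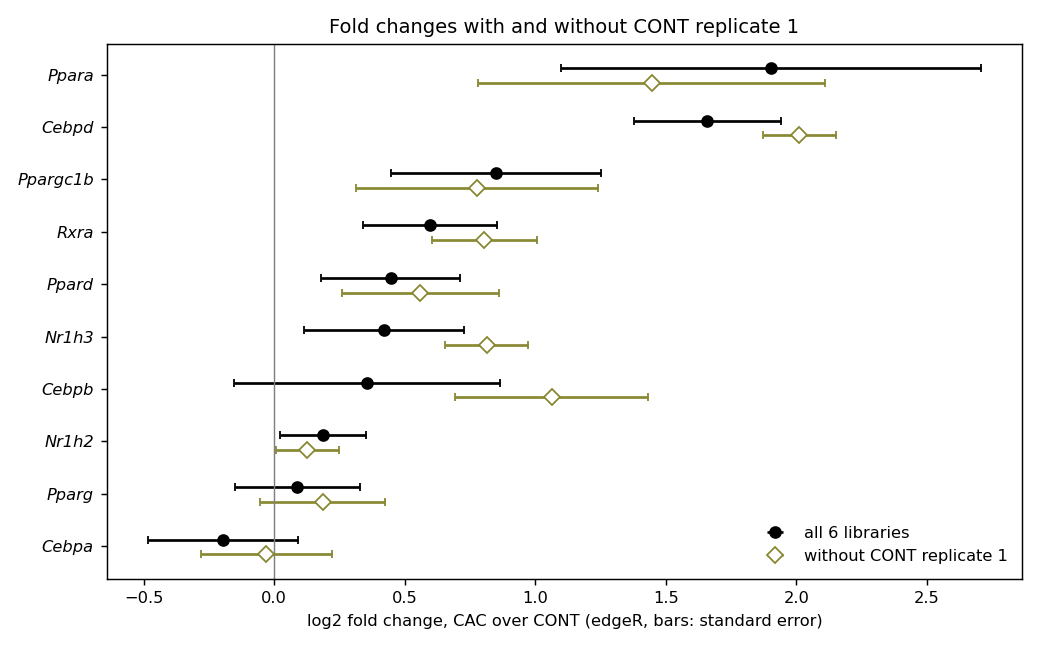
Fitted log2 fold change (CAC over CONT, edgeR) of each gene, with 1 standard error on either side, from all 6 libraries (filled circles) and without CONT replicate 1 (open diamonds). Cebpd lies at 1.66 and 2.01, and without that library Ppara, Ppargc1b and Nr1h2 sit farther to the left and the other 7 genes farther to the right.

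Among the partner and sensor receptors, all CAC libraries lay above CONT replicates 2 and 3 for both Rxra and Nr1h3, while CONT replicate 1 lay above 1 CAC library for Rxra and above all 3 for Nr1h3. Rxra (ENSMUSG00000015846, chr2:27676440-27762957, plus strand), the retinoid X receptor that pairs with the PPARs and liver X receptors, stood at 292, 204 and 204 CPM in CONT replicates 1 to 3 and 290.2, 363 and 405 CPM in CAC replicates 1 to 3. CONT replicate 1 and CAC replicate 1 had nearly the same level, and this is the sole overlap between the groups. The means were 233 ± 50.8 CPM in CONT and 353 ± 58.1 CPM in CAC, the log2 fold change was 0.60 (SE 0.26, edgeR adjusted p = 0.383), and without CONT replicate 1 it was 0.80 (SE 0.20, edgeR adjusted p = 0.237). By DESeq2 without that library, the adjusted p was 0.00149.

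Nr1h3 (ENSMUSG00000002108, chr2:91184061-91202834, minus strand), encoding LXRα, the liver X receptor of liver, fat and macrophages, stood at 168, 86.6 and 89.1 CPM in CONT replicates 1 to 3 and 159, 133 and 167 CPM in CAC replicates 1 to 3. CONT replicate 1 was the highest of all 6, and the other CONT libraries were the lowest. The log2 fold change was 0.42 (SE 0.31, edgeR adjusted p = 0.570) with means of 114 ± 46.1 CPM in CONT and 153 ± 17.8 CPM in CAC. Without CONT replicate 1 it was 0.81 (SE 0.16, edgeR adjusted p = 0.225), and the DESeq2 adjusted p was 3.13e-05. Summed macrophage markers, which come from another cell type that uses Nr1h3, were 915 CPM in CONT replicate 1, where Nr1h3 was highest, and their ranges in CONT and CAC overlapped. The part of these cells in the level of Nr1h3 was not tested.

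Nr1h2 (ENSMUSG00000060601, chr7:44549616-44553951, minus strand), encoding LXRβ, which is made in nearly every tissue, varied least, at 77.0, 87.5 and 93.2 CPM in CONT replicates 1 to 3 and 95.1, 101 and 96.7 CPM in CAC replicates 1 to 3. The groups did not overlap, with 1.94 CPM between the highest CONT and the lowest CAC library. The log2 fold change was 0.19 (SE 0.16, edgeR adjusted p = 0.638), and without CONT replicate 1 it was 0.13 (SE 0.12, edgeR adjusted p = 0.691). Over the 26 alternatives it ran from 0.13 to 0.41.

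Ppargc1b (ENSMUSG00000033871, chr18:61298136-61400431, minus strand), whose product is a coactivator of the receptors and of mitochondrial genes, stood at 6.69, 8.41 and 7.82 CPM in CONT replicates 1 to 3 and 6.94, 18.5 and 15.9 CPM in CAC replicates 1 to 3. CAC replicates 2 and 3 were above all CONT libraries, and CAC replicate 1 lay among them, the same arrangement as in Ppara. The means were 7.64 ± 0.875 CPM in CONT and 13.8 ± 6.07 CPM in CAC, and the log2 fold change was 0.85 (SE 0.40, edgeR adjusted p = 0.418). It was 0.78 (SE 0.46, edgeR adjusted p = 0.486) without CONT replicate 1. Without CAC replicate 1 it was 1.22 by edgeR (edgeR adjusted p = 0.244) and 1.1998 by DESeq2 (DESeq2 adjusted p = 1.62e-04), in the DESeq2 fit that called 1505 genes, and without CAC replicate 2 it was 0.59.

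Per length, on the FPKM scale that divides counts by gene length and a size per library (0.879 to 1.44 times its counts), the levels of the regulators spanned a wide range. In CONT the order was Cebpa (302 ± 54.8 FPKM), Pparg (59.7 ± 9.59), Nr1h3 (36.7 ± 15.1), Rxra (34.4 ± 7.79), Cebpb (33.0 ± 22.3), Nr1h2 (20.6 ± 1.85), Cebpd (8.74 ± 3.27), Ppard (4.85 ± 1.05), Ppargc1b (1.54 ± 0.164) and Ppara (1.40 ± 0.956). Cebpa was above Pparg in all 3 CONT libraries without overlap, and so were Nr1h2 over Cebpd, Cebpd over Ppard and Ppard over Ppargc1b. The neighbours from Pparg to Nr1h2, and Ppargc1b and Ppara, overlapped. In CAC the order was Cebpa (268 ± 59.7 FPKM), Pparg (64.3 ± 12.2), Rxra (52.7 ± 8.39), Nr1h3 (49.7 ± 5.98), Cebpb (42.6 ± 17.5), Cebpd (27.96 ± 2.08), Nr1h2 (23.8 ± 0.639), Ppard (6.69 ± 1.83), Ppara (5.36 ± 3.20) and Ppargc1b (2.82 ± 1.22). Cebpd stood below Nr1h2 in all 3 CONT libraries and above it in all 3 CAC libraries.

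Shares within a family did not overlap between the groups for Cebpd, Pparg, Rxra and Rxrg. Over all genes, the levels of 22.5% did not overlap, in either direction. Shares of a family add up to a fixed whole, so those of Rxra and Rxrg are not independent of each other. Of the summed FPKM of Cebpa, Cebpb and Cebpd, Cebpd took 2.86, 2.42 and 2.20% in CONT replicates 1 to 3 and 7.16, 9.68 and 8.40% in CAC replicates 1 to 3, without overlap. The share of Cebpa was 88.5% ± 4.24 in CONT and 79.0% ± 5.08 in CAC, where CONT replicate 1 (83.7%) lay just below CAC replicate 1 (84.2%). Within the PPARs, the share of Ppara was 2.27% ± 1.69 in CONT and 6.78% ± 3.49 in CAC, and that of Pparg 90.4% ± 1.31 in CONT and 84.2% ± 5.34 in CAC, with overlap between the groups for Ppara and without it for Pparg, whose lowest CONT share was 89.6% and highest CAC share 89.3%. Within the retinoid X receptors, Rxra took 65.3, 67.0 and 65.6% in CONT replicates 1 to 3 and 71.6, 71.0 and 72.3% in CAC replicates 1 to 3, again without overlap. The share of Rxrg, a retinoid X receptor gene known mainly from muscle and brain, was 10.1% ± 1.74 in CONT and 4.57% ± 1.70 in CAC, lower in every CAC library. The share of Nr1h3 among the liver X receptors was 62.4% ± 10.4 in CONT and 67.5% ± 3.34 in CAC, with overlap.

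**Figure D3:**
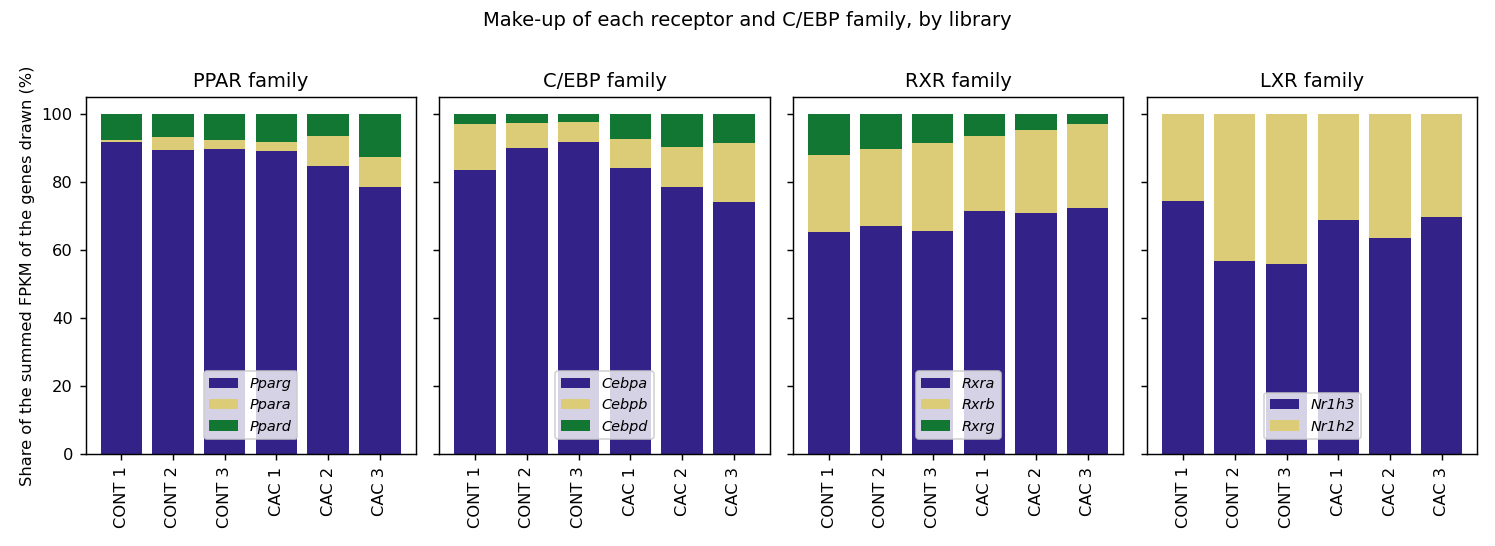
Share of each gene in the summed FPKM of its family (percent, linear axis from 0), with 1 bar per library. The Cebpd share is 2.20 to 2.86% in the CONT bars and 7.16 to 9.68% in the CAC bars, and the Rxra share 65.3 to 67.0% and 71.0 to 72.3%.

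Ratios of FPKM between genes of the same library do not depend on how libraries are scaled. Of 8 ratios compared, 3 did not overlap between the groups. The log2 ratio of Cebpd to Cebpa was -5.16 ± 0.26 in CONT and -3.24 ± 0.28 in CAC, and that of Cebpd to Cebpb was -1.78 ± 0.40 in CONT and -0.54 ± 0.46 in CAC. The log2 ratio of Rxra to Pparg was -0.81 ± 0.24 in CONT and -0.28 ± 0.37 in CAC. Each of these had an exact two-sided permutation p of 0.1, the smallest possible here, and a p of 0.267 adjusted over the 8 ratios by the permutation tests. The log2 ratio of Ppara to Pparg was -5.82 ± 1.73 in CONT and -3.82 ± 1.04 in CAC (exact p = 0.2, adjusted 0.4), with CAC replicate 1 among the CONT libraries, and the difference of 2.002 became 1.01 without CONT replicate 1. The others overlapped, with differences of 0.35 for Ppard to Pparg, 0.68 for Cebpb to Cebpa, 0.29 for Nr1h3 to Nr1h2 and 0.31 for Ppargc1b to Ppargc1a, its sister coactivator, and exact permutation p from 0.3 to 0.8. With CONT replicate 1 left out, these 4 differences were 0.37, 1.05, 0.68 and 0.56. That of Ppargc1b to Ppargc1a turned negative without CAC replicate 3. Its log2 ratio was 2.27 in that library, against 0.48 and 0.39 in CAC replicates 1 and 2.

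**Figure D4:**
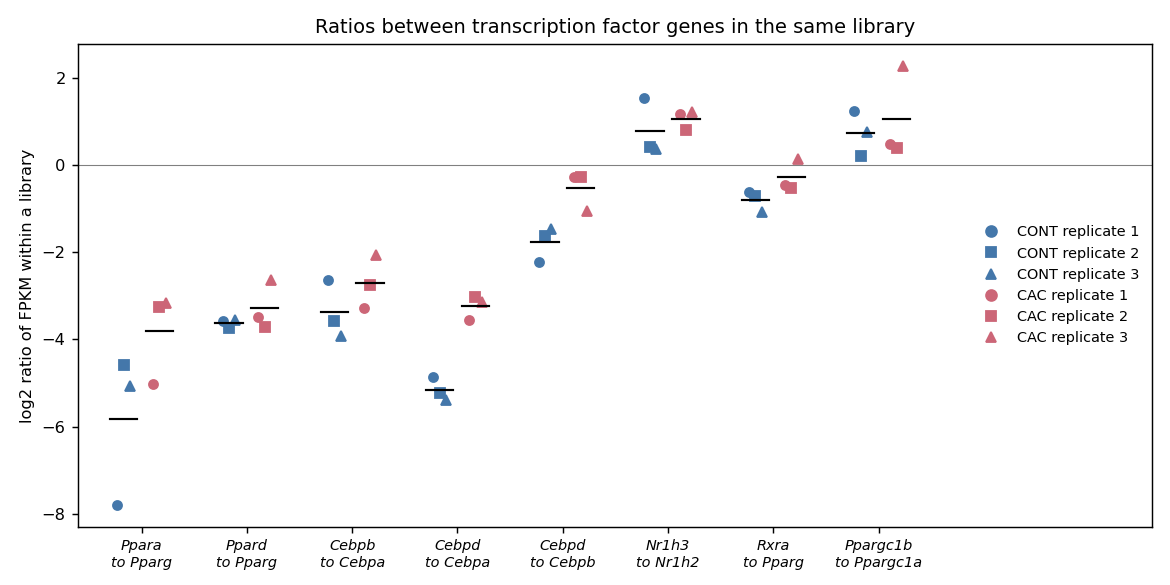
Log2 ratio of the FPKM of the genes named under the axis, taken within each library; horizontal lines are the means of 3 libraries. Cebpd to Cebpa lies between -5.38 and -4.87 in CONT and between -3.56 and -3.02 in CAC, while Ppara to Pparg spreads from -7.79 to -3.16 with overlap between the groups.

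The partners of these regulators and the genes they are known to control were taken from 9 lists. In every list 0 genes had an edgeR adjusted p under 0.05, so genes are described by their direction, their overlap and the unadjusted p, for which the background over all genes was 6.31% higher in CAC and 6.95% lower, and for groups that did not overlap 11.8% higher and 10.7% lower. Over all genes the share with an unadjusted p under 0.05 was 13.3% with the 6 libraries, 15.6, 9.30 and 9.25% without CONT replicate 1, 2 or 3 and 11.7, 7.24 and 8.32% without CAC replicate 1, 2 or 3, and the counts without 1 library given for each list are to be read beside these. Of 20 dimer partners and coregulators, 4 had an unadjusted p under 0.05 and a higher level in CAC and 0 a lower one, and the median log2 fold change was 0.37. Lpin1, a phosphatidate phosphatase that also coactivates PPARα, was highest by fold (208 to 371 CPM in CONT and 1082 to 1351 CPM in CAC, log2 fold change 2.03, SE 0.31). Ncoa4 (46.5 to 134 CPM in CONT and 335 to 395 CPM in CAC, log2 fold change 1.94, SE 0.40), a receptor coactivator also known for ferritin breakdown, Ncoa1 (45.0 to 65.3 CPM in CONT and 83.1 to 126 CPM in CAC, log2 fold change 0.84, SE 0.24), a coactivator, and Ncor1 (146 to 223 CPM in CONT and 239 to 310.3 CPM in CAC, log2 fold change 0.62, SE 0.24), a corepressor, were the other 3. None of these 4 overlapped between the groups. Of the 20, 7 without CONT replicate 1 had an unadjusted p under 0.05.

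The list with the most such genes was that of PPARα and PPARδ targets in fatty acid oxidation. Of 45 genes, 38 passed the filter, and 17 had an unadjusted p under 0.05 and a higher level in CAC, 0 a lower one, with a median log2 fold change of 0.66 against -0.055 over all genes. In 22 of 38 the CAC libraries all lay above the CONT libraries, against 11.8% of all genes, and in 0 the reverse. The study had picked at least 6 of these genes on these libraries, so they are not independent evidence of the direction. Among the other 32, 11 had an unadjusted p under 0.05 and the median was 0.58. These were measured on the same libraries, and the lists were chosen with earlier results known. They are therefore not independent evidence either. Pdk4 (18.7 to 24.4 CPM in CONT and 99.3 to 198 CPM in CAC, log2 fold change 2.78, SE 0.30), which shuts off pyruvate dehydrogenase, had the smallest p of the list (edgeR adjusted p = 0.127). Eci1 (112 to 129.5 CPM in CONT and 238 to 398 CPM in CAC, log2 fold change 1.44, SE 0.26) and Acot4 (8.74 to 29.2 CPM in CONT and 64.4 to 93.0 CPM in CAC, log2 fold change 1.95, SE 0.44), enzymes of fatty acid oxidation and acyl-CoA hydrolysis, were among the genes picked by the study. The count was 9 without CONT replicate 2, 12 without CAC replicate 3 and 14 to 17 without any other library.

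The PPARγ targets of the fat cell lay on both sides of 0. Of 37 genes, 9 of them adipocyte markers as well, 4 had an unadjusted p under 0.05 and a higher level in CAC and 3 a lower one, with a median log2 fold change of -0.23. Pnpla2 (1312 to 1916 CPM in CONT and 3787 to 4725 CPM in CAC, log2 fold change 1.36, SE 0.32), the first lipase of triglyceride breakdown, and Adipor2 (227 to 701 CPM in CONT and 1010.1 to 1383 CPM in CAC, log2 fold change 1.28, SE 0.44), an adiponectin receptor, were higher without overlap. Me1 (485 to 699.7 CPM in CONT and 201 to 369.9 CPM in CAC, log2 fold change -1.03, SE 0.32), the malic enzyme that makes NADPH for lipogenesis, and Acss2 (78.8 to 268 CPM in CONT and 63.8 to 71.2 CPM in CAC, log2 fold change -1.31, SE 0.43), an acetyl-CoA synthetase, were lower without overlap. The count of 7 became 2 without CONT replicate 2, 4 without CAC replicate 2 or 3 and 11 without CAC replicate 1.

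Of 28 liver X receptor targets in cholesterol transport and lipid synthesis, 25 passed the filter, 4 had an unadjusted p under 0.05 and a higher level in CAC and 2 a lower one, with a median of -0.16. Mylip (56.9 to 84.4 CPM in CONT and 157 to 259 CPM in CAC, log2 fold change 1.504, SE 0.27), which directs the LDL receptor to breakdown, Abcg1 (14.8 to 24.4 CPM in CONT and 39.8 to 55.2 CPM in CAC, log2 fold change 1.36, SE 0.25), a cholesterol exporter, and Npc1 (19.2 to 52.3 CPM in CONT and 80.2 to 201 CPM in CAC, log2 fold change 1.77, SE 0.48), which moves cholesterol out of lysosomes, were higher without overlap. Arl4c (15.1 to 64.9 CPM in CONT and 8.83 to 14.7 CPM in CAC, log2 fold change -1.86, SE 0.53), a small GTPase, was lower without overlap. The other 2 of these 6 were Abca1, a cholesterol exporter at 126 to 345 CPM in CONT and 562 to 769.8 CPM in CAC, and Scd2, a desaturase at 149 to 444 CPM in CONT and 26.9 to 114 CPM in CAC, both named after their values were seen. The count of 6 became 11 without CONT replicate 1.

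Of 16 C/EBP targets of the fat cell, 6 of them adipocyte markers, 4 had an unadjusted p under 0.05 and a higher level in CAC and 1 a lower one, with a median of 0.12. Acacb (123 to 279 CPM in CONT and 919 to 1339 CPM in CAC, log2 fold change 2.50, SE 0.38), the acetyl-CoA carboxylase of mitochondria, was highest by fold. The insulin receptor gene Insr (77.0 to 194 CPM in CONT and 302 to 412 CPM in CAC, log2 fold change 1.25, SE 0.38) and the insulin receptor substrates Irs2 (14.3 to 71.0 CPM in CONT and 114 to 251 CPM in CAC, log2 fold change 1.91, SE 0.60) and Irs1 (7.40 to 32.6 CPM in CONT and 48.0 to 93.4 CPM in CAC, log2 fold change 1.63, SE 0.57) were the others, and all 4 were without overlap. Irs1 and Irs2 had their lowest levels in CONT replicate 1. The count of 5 became 3 without CAC replicate 2.

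The acute-phase targets of C/EBPβ and C/EBPδ split in direction. Of 21 genes, 17 passed the filter, and 2 had an unadjusted p under 0.05 with a higher level in CAC and 4 with a lower one, with a median of 0.21. Orm1 (104 to 159 CPM in CONT and 22.5 to 51.7 CPM in CAC, log2 fold change -1.68, SE 0.35) and Orm3 (8.63 to 24.0 CPM in CONT and 1.48 to 5.06 CPM in CAC, log2 fold change -2.15, SE 0.61), acute-phase orosomucoids, and Ptx3 (1.88 to 2.35 CPM in CONT and 0.283 to 0.739 CPM in CAC, log2 fold change -2.08, SE 0.51), a pentraxin of innate defence, were lower in every CAC library. Itih4 (3.37 to 5.02 CPM in CONT and 4.68 to 56.6 CPM in CAC, log2 fold change 2.93, SE 0.83), a plasma protease inhibitor, was higher in CAC replicates 2 and 3 only. The median was -0.46 without CAC replicate 3. The neutrophil markers given above differ between the same groups, and their part here was not tested.

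Of 30 genes of the mitochondrial program of the PGC-1 coactivators and estrogen-related receptors, nuclear regulators such as Esrrg and Nrf1 included, 29 passed the filter. Of these, 9 had an unadjusted p under 0.05 with a higher level in CAC and 1 with a lower one, 14 were higher in every CAC library (11.8% of all genes), and the median was 0.32. Uqcrc2 (108 to 155 CPM in CONT and 211 to 249.96 CPM in CAC, log2 fold change 0.81, SE 0.21) of complex III, Ndufs1 (96.8 to 110.2 CPM in CONT and 149 to 174 CPM in CAC, log2 fold change 0.65, SE 0.17) of complex I, Sdha (413 to 551 CPM in CONT and 774 to 893 CPM in CAC, log2 fold change 0.83, SE 0.24) of complex II and Tfb2m (23.5 to 31.2 CPM in CONT and 40.5 to 50.8 CPM in CAC, log2 fold change 0.72, SE 0.19), a mitochondrial transcription factor, had the smallest p. The 1 gene that was lower, Esrrg, a nuclear receptor named after its values were seen, stood at 0.624 to 5.65 CPM in CONT and 0.302 to 1.09 CPM in CAC. The count of 10 became 16 without CONT replicate 1, 5 without CONT replicate 2, 6 without CAC replicate 2 and 5 without CAC replicate 3.

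The other transcription factors of adipogenesis were spread around 0. Of 34 genes, 3 had an unadjusted p under 0.05 with a higher level in CAC and 4 with a lower one, with a median of -0.26. Sox9 (23.5 to 31.7 CPM in CONT and 1.52 to 3.96 CPM in CAC, log2 fold change -3.29, SE 0.41), which holds precursors back from differentiating, was lower in every CAC library. Zfp467 (41.6 to 43.0 CPM in CONT and 18.9 to 29.7 CPM in CAC, log2 fold change -0.75, SE 0.21), a zinc finger factor of fat and bone precursors, was lower too, and Foxo1 (66.8 to 99.7 CPM in CONT and 119.6 to 167 CPM in CAC, log2 fold change 0.90, SE 0.24), the factor that insulin keeps out of the nucleus, was higher, both without overlap. Egr2 (Krox20) ranged over 1.25 to 71.6 CPM in CONT and 0.646 to 1.44 CPM in CAC, where the high CONT value is that of CONT replicate 3, the library with the epididymis markers. The part of epididymis tissue in this value was not tested. The count of 7 became 4 without CAC replicate 2 and 3 without CAC replicate 3.

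Of 13 other C/EBP family members and dimer partners, 2 had an unadjusted p under 0.05 with a higher level in CAC and 1 with a lower one, with a median of -0.15. Nfil3 (4.99 to 18.01 CPM in CONT and 21.1 to 123 CPM in CAC, log2 fold change 2.61, SE 0.88), a repressor of the bZIP class, and Cebpz (23.9 to 32.7 CPM in CONT and 39.5 to 57.3 CPM in CAC, log2 fold change 0.75, SE 0.22) were higher without overlap, and Batf3 (5.51 to 9.27 CPM in CONT and 1.89 to 3.90 CPM in CAC, log2 fold change -1.22, SE 0.44), a factor of dendritic cells, was lower without overlap. Ddit3 (13.6 to 40.1 CPM in CONT and 10.6 to 13.6 CPM in CAC, log2 fold change -0.94, SE 0.43), the stress factor CHOP that blocks C/EBP binding, overlapped, with its highest level in CONT replicate 1. Highest by far for Nfil3 was CAC replicate 3, the library with the most neutrophil marker signal. Within CONT, Nfil3 was highest in CONT replicate 1 (18.01 CPM), where the summed neutrophil markers were lowest (17.7 CPM). The part of these cells in the level of Nfil3 was not tested. The count of 3 became 5 without CONT replicate 1 and 1 without CAC replicate 3, and without CONT replicate 3 the median was 0.33.

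**Figure D5:**
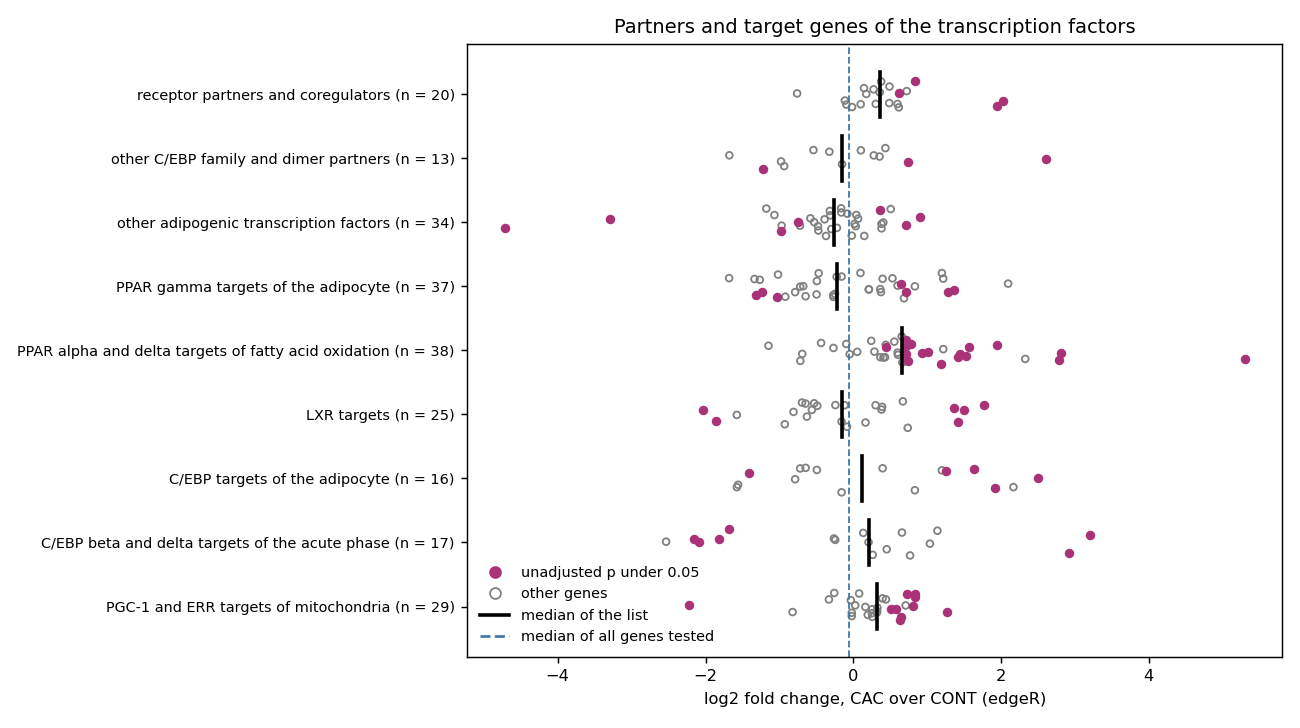
Fitted log2 fold change (CAC over CONT, edgeR) of the tested genes of each list, with 1 point per gene and vertical jitter without meaning. Filled points have an unadjusted p under 0.05 (0 genes had an adjusted p under 0.05), black lines are list medians and the dashed line is the median of all genes; the fatty acid oxidation list has 17 filled points, all to the right of 0.

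Genes with the profile most like each regulator over the 6 libraries were found among 8426 genes with a mean log2 CPM above 4, by the root-mean-square (RMS) difference of centred log2 CPM. For Cebpd they were Fmo2, Pdk2 and Galnt15 (RMS 0.25, 0.26 and 0.27, against an SD of 0.99 for Cebpd itself). For Ppara they were Syne3, Irs1 and Slc6a6 (RMS 0.25, 0.41 and 0.42, SD 1.65), of which Irs1 is also a C/EBP target above. For Cebpa they were Scoc, Atpaf2 and Pitpna (RMS from 0.037 to 0.060, SD 0.27), for Cebpb Tmed5, Nnmt and Ptges3 (from 0.10 to 0.22, SD 0.71) and for Pparg 1810030O07Rik, R3hdm2 and Fam117a (from 0.092 to 0.095, SD 0.23). For Ppard they were AU022252, Wdr46 and Rpf1 (from 0.077 to 0.11, SD 0.40) and for Ppargc1b Synm, Mmrn1 and Kctd15 (from 0.13 to 0.18, SD 0.63). For Rxra they were Map4k5, 2810004N23Rik and Cluh (from 0.038 to 0.046, SD 0.41), for Nr1h3 Pla2g12a, Cldn15 and Ndufaf4 (from 0.085 to 0.094, SD 0.44) and for Nr1h2 Rab14, Elf1 and Rabgap1 (from 0.031 to 0.039, SD 0.14). These likenesses rest on 6 libraries that share depth and composition, CONT replicate 1 among them, and describe those libraries only.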

How the data were processed

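The samples were eWAT of 3 CAC and 3 CONT mice, 1 library each. The authors used HISAT2 2.0.5 for alignment, with the Ensembl release 94 mouse genome as reference, and the submitters' processing notes name featureCounts 1.5.0-p3. The deposited counts are whole reads per gene, unnormalized, and the deposited FPKM values are those counts divided by gene length and by 1 size per library, which was 0.879 to 1.44 times the library's counts and whose derivation is not given in the sources used here. The mRNA kit does not mark strand. Depth was 15713794 to 25926425 counts per library, so 1 CPM stood for 11.2 to 26.5 reads.

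Counts were tested in R 4.3.3 with edgeR 4.0.16 (quasi-likelihood, robust, TMM, filter by group, condition only, Benjamini-Hochberg over 17296 genes), and ratios of FPKM with exact permutation tests. Tests were tried on simulated data. Alternatives were RLE and upper-quartile normalization, library totals without mitochondrial genes, no filter, at least 10 counts in every library, no robust estimation, the replicate block, each library left out, DESeq2 1.42.0, voom quality weights, and limma 3.58.1 on log2(FPKM + 1) or log2(FPKM + 0.1), with FPKM 0.5 reached in 3 or more libraries or no filter, a scale that understates changes of low genes. Offsets for length and GC content and DESeq2 with the block were added after the data had been seen.

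The genes and lists were chosen with earlier results of these data known. Named are the 10 regulators, the 4 genes of smallest unadjusted p in each list, the 3 most alike genes per regulator, the 2 most abundant markers per cell type list, and others where said, and 1 gene that this rule names is not reported here. Coordinates are those deposited, on GRCm38, and all 10 equal GENCODE M21's. Only Cebpa, Cebpb, Cebpd and Nr1h3 share exon bases with another annotated gene, 1.94% of those of Cebpa and 1.35% of those of Nr1h3. Cell type lists were 14 adipocyte, 15 macrophage, 11 neutrophil, 11 T cell, 11 B and plasma cell, 10 endothelium, 14 fibroblast and progenitor, 10 mesothelium, 13 epididymis, 10 skeletal muscle and 6 erythroid markers. P-values measure the spread between these mice, and the labels do not say whether mice shared a cage or batch.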

Additional observations from a re-analysis of the deposited data

How the results depend on the processing

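Over the alternatives listed after the report, the fold changes of Ppara, Ppard, Cebpd, Rxra, Nr1h2, Nr1h3 and Ppargc1b had the same sign throughout, and the counts called moved with the tool. Genes with an adjusted p under 0.05 numbered 0 by edgeR with all normalizations and filters tried and with any library left out, 959 by DESeq2 (550 higher, 409 lower), 234 by voom with sample quality weights, 7 and 8 by limma on FPKM with a pseudocount of 1 and 0.1 (0 without the filter), and 0 to 2104 over the fits without 1 library (edgeR and DESeq2). Of the 10 regulators, 1 was called by DESeq2 and by voom (Cebpd), and 0 to 3 without 1 library. In simulated CAC and CONT libraries with 200 of 17296 genes changed by a log2 value of 2 at the estimated dispersions, edgeR recovered 31.0% with 15.1% of its 73 calls false, and DESeq2 63.5% with 43.0% of 223 calls false, and at a dispersion of 0.1 edgeR recovered 90%. At an unadjusted p under 0.05, 2 of the 10 were called with RLE normalization (13.3% of all genes), with totals without mitochondrial genes (13.5%) and with at least 10 counts in every library (15.4%), 3 without a filter (7.62%), by DESeq2 (9.44%) and by limma on FPKM in its 3 settings (14.3, 14.1 and 7.27%), 4 with the offsets (14.1%), 5 by voom (25.2%), and 1 to 5 without 1 library (7.24 to 15.6%). The log2 fold change of Cebpd was 1.68 by DESeq2 and 1.93 by voom, and that of Cebpa 0.11 with the offsets for length and GC content.

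Without 1 library (edgeR and DESeq2 together), log2 fold changes ran from -0.068 to 0.23 for Pparg, 1.45 to 2.39 for Ppara, -0.34 to 0.013 for Cebpa, -0.027 to 1.11 for Cebpb, 1.499 to 2.06 for Cebpd, 0.50 to 0.85 for Rxra, 0.26 to 0.86 for Nr1h3 and 0.59 to 1.22 for Ppargc1b, and the Ppargc1b to Ppargc1a ratio from -0.30 (without CAC replicate 3) to 0.64. The medians ran from 0.27 to 0.84 for the 10 regulators, -0.36 to 0.35 for other C/EBP members, -0.32 to -0.052 for other adipogenic factors, -0.61 to 0.0022 for PPARγ targets, 0.50 to 0.86 for PPARα and PPARδ targets, -0.26 to 0.17 for LXR targets, -0.46 to 0.90 for acute-phase targets 0.21 to 0.51 for PGC-1 targets, 0.33 to 0.45 for receptor partners and -0.043 to 0.24 for C/EBP targets of the fat cell. Without CONT replicate 1 they were -0.059 for PPARγ targets and 0.19 for C/EBP targets by edgeR. By voom the medians were 0.72 for the regulators, -0.35 for other C/EBP members, -0.11 for other adipogenic factors, 0.55 for PPARα and PPARδ targets and -0.45 for acute-phase targets. By limma on FPKM that of other C/EBP members was 0.0034 (pseudocount 1), 0.062 (0.1) and 0.042 (no filter), that of other adipogenic factors -0.15 (with and without the filter), and that of PPARα and PPARδ targets 0.53 (no filter), while the offsets gave 0.19 for PGC-1 targets, 0.23 for receptor partners and -0.13 for PPARγ targets. The causes of these differences were not tested.

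The labels do not say whether replicate numbers pair the mice. The correlations of same-numbered CONT and CAC libraries were -0.031, 0.059 and -0.15 over 5779 genes. Those of the other CONT and CAC libraries ran from -0.11 to 0.12. CONT replicate 1 correlated best with CAC replicate 3, and CONT replicates 2 and 3 with CAC replicate 2. With 3 libraries per group, such values cannot show whether mice were paired. With the replicate number as a block, edgeR called 1 gene (lower in CAC) and 2 regulators had an unadjusted p under 0.05 (11.52% of all genes), with a median of -0.0038 for other C/EBP members. DESeq2 with the block called 890 genes and 2 regulators, Cebpd (log2 fold change 1.74) and Ppara (2.07), left 2 with an unadjusted p under 0.05 (8.17% of all genes) and gave -0.00086 for that median.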

Other observations

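None of the marker genes of other cell types passed edgeR's adjusted test, and those with an unadjusted p under 0.05 were unevenly spread over the lists. Of 14 fibroblast and progenitor markers, 5 had an unadjusted p under 0.05 and a lower level in CAC and 0 a higher one (against 6.95% and 6.31% of all genes), and 5 were lower in every CAC library (10.7% of all genes). Its most abundant markers by FPKM were not among them. Dcn (decorin) ran from 780.4 to 973 CPM in CONT and 1099 to 1498 CPM in CAC, and Ly6a (Sca-1) from 130.2 to 212 CPM in CONT and 109.6 to 148 CPM in CAC. Of the 5, chosen with their values in view, the collagen gene Col3a1 ran from 539 to 982 CPM in CONT and 127 to 317 CPM in CAC and Pi16, a marker of adipose progenitors, from 32.4 to 42.6 CPM in CONT and 16.6 to 24.3 CPM in CAC. Of 11 B and plasma cell markers, 4 had an unadjusted p under 0.05 with a lower level and 1 with a higher one. The higher one, Xbp1, which fat and secretory cells also use, ran from 123 to 261 CPM in CONT and 316 to 824 CPM in CAC, and Sdc1 from 15.6 to 83.6 CPM in CONT and 24.6 to 69.7 CPM in CAC. Of the neutrophil markers, 7 of 11 had an unadjusted p under 0.05 and a higher level in CAC, S100a9 from 1.34 to 22.1 CPM in CONT and 62.9 to 461 CPM in CAC and S100a8 from 0.803 to 17.99 CPM in CONT and 48.5 to 492 CPM in CAC. In the other lists the counts were 0 of 10 tested T cell markers, 0 of 6 erythroid, 1 of 10 mesothelium, 1 of 10 endothelium, 2 of 9 skeletal muscle and 2 of 13 adipocyte markers, all higher in CAC, 2 higher and 2 lower of 15 macrophage markers, and 1 of 2 epididymis markers, lower in CAC. Hba-a1, a globin gene that shares reads with its near copy, was 3031 CPM in CONT replicate 1, against 138 and 229.5 CPM in CONT replicates 2 and 3 and 1124 to 1506 CPM in CAC.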
